A study of Caenorhabditis elegans with 2 samples.

Results

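Sex determination and dosage compensation in Caenorhabditis elegans are set by 1 pathway, and 10 of its genes are described here: xol-1, sdc-1, sdc-2, sdc-3, dpy-27, dpy-28, mix-1, her-1, fox-1 and tra-1. They were taken by name out of 19973 protein-coding genes on the nuclear chromosomes of the ce11 (WBcel235) build. For each gene, every listed region with its summit inside the gene or within 6000 bases of it was collected, with its signal, its rank and its distance to the gene's annotated 5′ end.

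Chromatin immunoprecipitation followed by sequencing (ChIP-seq) recovers DNA bound by a chosen protein, here NHR-11, a member of the nuclear hormone receptor family of transcription factors. The material was whole animals at the L3 larval stage, labelled as pooled male and female, of strain OP305, which carries the unc-119(ed3) mutation on chromosome III and the transgene wgIs305 with an eGFP-tagged nhr-11. The antibody is labelled nhr-11, so whether the tag or the receptor was recognised is not settled by the labels. There were 2 biological replicates of 1 group, with fragments of 150 to 350 bp, and neither a strain without the transgene nor another stage or sex was in the data used. Whole animals were used and the label gives both sexes as pooled, so no region can be assigned to a tissue or to a sex. The share of males among the animals is not known here, and expression was not measured.

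The pathway starts from a count of X chromosomes relative to autosomes. X-linked signal elements such as fox-1 repress the switch gene xol-1 in hermaphrodites, and xol-1 is active in males. Where xol-1 is off, the SDC proteins bring a condensin-like dosage compensation complex, which includes DPY-27, DPY-28 and MIX-1, to the hermaphrodite X chromosomes and lower their expression, and they also repress her-1. Downstream of her-1 stands tra-1, which encodes the terminal transcription factor of somatic sexual fate.

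Of the 4 deposited lists on ce11, the reproducible list held 1030 regions with signals from 54.9 to 899 and a median of 73.8, and these were the 1030 strongest regions of the pooled list. The pooled list held 30000 candidate regions with a median signal of 24.8, and those of replicate 1 and replicate 2 held as many with medians of 14.4 and 12.6. Candidate lists include background by design, so a region found only there is called a candidate, and its rank in the list (1 for the strongest) is given. Of the 1030 reproducible regions, 652 were also among the strongest 1030 of both replicates. The lists give no read counts, so the depth behind each region is unknown.

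Reproducible NHR-11 regions lay near 3 of the 10 genes, xol-1, dpy-28 and mix-1, and none of the 10 genes had one at its own start. The share of 30% within 6000 bases stands beside 13.6% of all protein-coding genes, 16.4% of genes at least as long as the shortest of the 10, 15% of X-linked genes and 13.4% of autosomal genes. By chromosome, 1 of the 4 X-linked genes and 2 of the 6 autosomal genes had such a region. The 10 genes are long, with a median of 9902 bases against 2027 bases for all genes, and a longer gene has a wider window. Per length, the windows of the 10 genes held 4 reproducible summits in 231.57 kb, which is 17.3 per Mb against 10.3 per Mb of the genome. Of these 4, both summits upstream of xol-1 come from overlapping regions. With the strongest 1030 regions of replicate 2 alone, without replicate 1, the windows held 2 summits, or 8.64 per Mb. That is below the 10.3 per Mb of the genome, so the direction of this difference did not hold in replicate 2 alone. It held in the stronger of 2 equal parts of the reproducible list, at 8.64 against 5.14 per Mb of the genome. Among regions that overlapped one of the strongest 1030 of both replicates it was 13.0 against 6.50 per Mb, with both xol-1 summits still counted. By any overlap, 3 of the regions near the 10 genes matched in this way. With an overlap of at least 50%, or with summits within 100 bases, 2 matched and 1 of the xol-1 summits was lost. Densities were not computed under these stricter rules. A gene start was taken as the stretch that begins 1000 bases before the annotated 5′ end and stops 500 bases after it. There the count was 0 of 10, beside 3.3% of all genes, 2.97% of X-linked genes and 3.35% of autosomal genes. With a background share this low, a count of 0 among 10 genes is near the background. Of all genes with a reproducible summit within 6000 bases, 24.3% had one at their own start, and 0 of the 3 genes here did. With 3 genes, a count of 0 cannot be told apart from that share.

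**Figure D1:**
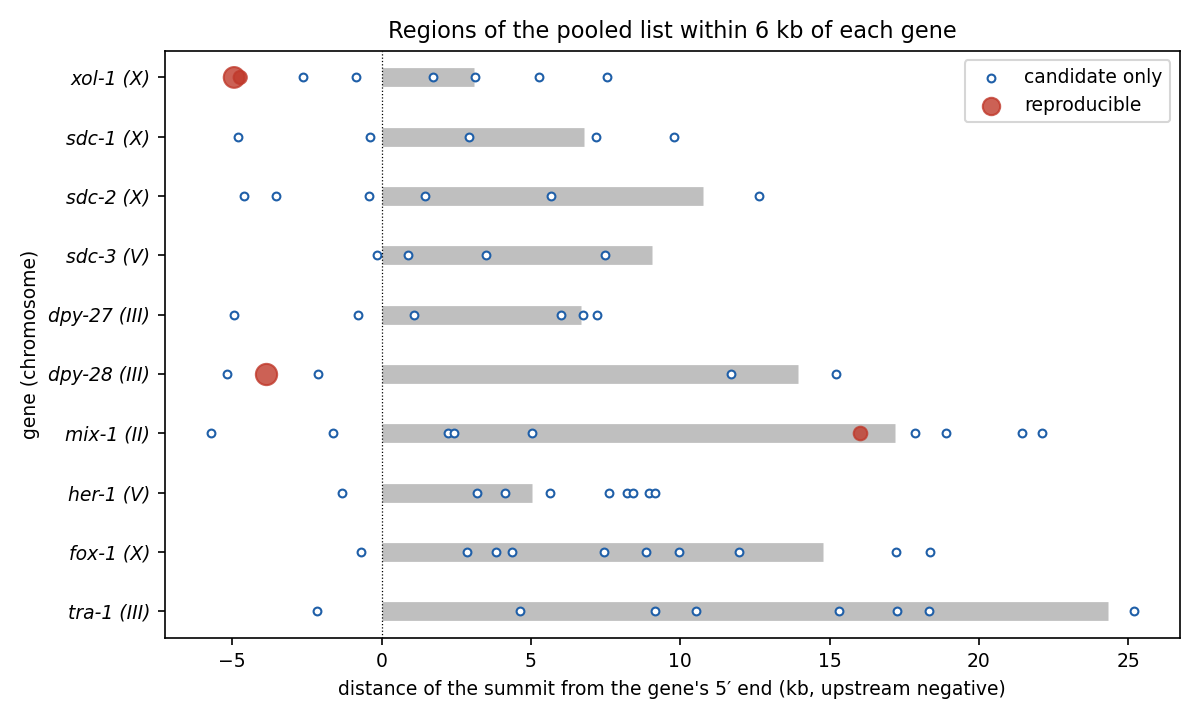
Summits of the pooled list within 6 kb of each of the 10 genes, by distance from the gene's 5′ end (x axis, kb, upstream negative); each row is a gene with its chromosome, and the grey bar is the gene body. Red filled points are reproducible regions, larger for higher signal, and open points are candidates only. The reproducible regions lie 4938 and 4734 bases upstream of xol-1, 3879 bases upstream of dpy-28 and 16025 bases inside mix-1, and none lies at a 5′ end.

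The strongest region near the switch gene was 4938 bases upstream of xol-1 (WBGene00006962, chromosome X, 8041313 to 8044409, + strand), which encodes the protein whose activity directs male fate. Its summit was at position 8036375 in intergenic sequence, in a region listed at chrX:8036311-8036410. Its signal was 394 in the pooled list, 188 in replicate 1 and 206 in replicate 2. It ranked 6 in the pooled list, 8 in replicate 1 and 6 in replicate 2, and the replicate summits lay 1 and 9 bases from the pooled one, so the region was among the strongest of both replicates. A second reproducible region, chrX:8036401-8036756, overlapped its edge and had its summit 204 bases further along, 4734 bases upstream of xol-1. The second region was far weaker, with a signal of 63.4 at rank 750 in the pooled list. Replicate 1 listed a summit 5 bases away at rank 888 with a signal of 30.7, and replicate 2 listed none within 100 bases. The second summit lay 106 bases from a tRNA gene (WBGene00022939, 8036685 to 8036757, − strand), which the region overlaps. Of the 31-base words in the whole second region, which is 356 bases wide, 85.9% occur once in the genome. In the first region, 100 bases wide, the share was 100%. The part of repeated sequence in the second region was not tested. Neither summit lay in the start window of a protein-coding gene, and xol-1 had the nearest protein-coding 5′ end.

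The 300 bases that hold both summits are shown, because they carry copies of a word with a known place in dosage compensation. The sequence is from the RefSeq WBcel235 genome (ce11), chrX:8036325-8036624, + strand, with GCGCAGG and its reverse complement in capitals:
xol-1 upstream: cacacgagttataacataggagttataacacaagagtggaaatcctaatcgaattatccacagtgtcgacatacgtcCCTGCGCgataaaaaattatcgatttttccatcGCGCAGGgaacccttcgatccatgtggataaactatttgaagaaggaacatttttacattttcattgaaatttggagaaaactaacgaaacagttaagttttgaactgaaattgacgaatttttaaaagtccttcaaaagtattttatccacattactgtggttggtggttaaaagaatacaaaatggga

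GCGCAGG is a stretch of the motif found in recruitment elements on X (rex sites), the places where the dosage compensation complex first loads. The copies upstream of xol-1 lay on opposite strands, at 8036402 to 8036408 (−) and 8036435 to 8036441 (+), which is 27 and 60 bases from the stronger summit, with 26 bases between them. The word was searched on both strands within 50 bases of every summit. It occurred in 21 of the 1030 reproducible regions (2.04%) and in 88 of the 30000 pooled candidates (0.293%). By chromosome, 15 of 210 reproducible regions on X held it (7.14%), against 6 of 820 on the autosomes (0.732%). The chromosomes themselves carried the word about equally, in 0.184% of consecutive 101-base windows of X against 0.187% of those of the autosomes. The 15 regions on X ranked from 6 to 936 with a median of 35, and 12 of them lay outside every protein-coding start window. At least 2 copies within 100 bases of the summit were found in 5 of the 210 regions on X and in 0 of 820 on the autosomes, and the region upstream of xol-1 had the highest signal of those 5. These are counts of letters near summits, and binding by the dosage compensation complex was not measured.

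**Figure D2:**
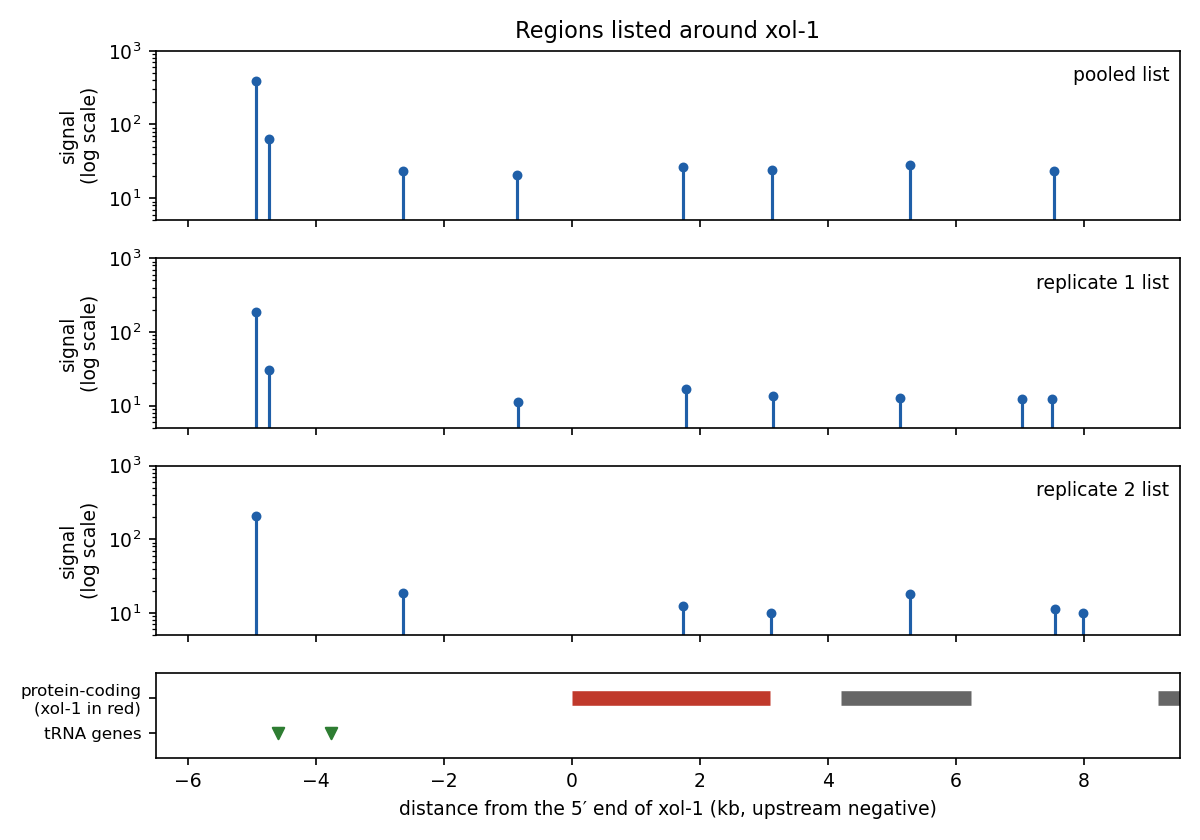
Regions listed around xol-1 in the pooled list and in both replicate lists, by distance of the summit from the 5′ end of xol-1 (x axis, kb, upstream negative) and signal (y axis, log scale); the bottom panel marks protein-coding genes, with xol-1 in red, and tRNA genes as triangles. The region 4938 bases upstream has the highest signal in all 3 lists (394, 188 and 206), and the one 204 bases beside it has no summit of its own in replicate 2.

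Around the xol-1 gene itself only weak candidates were listed. The strongest pooled region in its start window had its summit 859 bases upstream, with a signal of 20.96 at rank 24752. Replicate 1 listed it at rank 29397 and replicate 2 did not list it. By that rank, 37.1% of protein-coding genes had a stronger region at their own start.

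The X-linked signal element fox-1 (WBGene00001484, chromosome X, 2445117 to 2459893, − strand) encodes an RNA-binding protein that acts on xol-1. The nearest reproducible summit lay 76765 bases from it, the greatest distance among the 10 genes. The median of this distance was 26190 bases over the 10 genes and 41993 bases over all protein-coding genes. The start window of fox-1 held 1 candidate, 692 bases upstream, with a signal of 20.1 at rank 27564, listed in replicate 2 at rank 16108 and absent from replicate 1. The strongest candidate near fox-1 lay in an intron 8838 bases downstream of the 5′ end, with a signal of 32.1 at rank 5774 in the pooled list, 4865 in replicate 1 and 10514 in replicate 2. A stronger region was listed within 6000 bases of 50.8% of all protein-coding genes, so fox-1 stood near the middle of all genes. The gene is 14777 bases long against a median of 2027 bases, so its window is wider. Genes of like length were not compared.

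The genes for the SDC proteins, which bring the dosage compensation complex to X, had no reproducible region nearby, and each had a candidate just upstream of its start. Of all protein-coding genes, 13.6% had a reproducible region within 6000 bases and 43.2% had a pooled candidate at the start. The nearest reproducible summits were 65846 bases from sdc-1 (WBGene00004745, chromosome X, 16275763 to 16282534, + strand), 47078 bases from sdc-2 (WBGene00004746, chromosome X, 11522707 to 11533450, + strand) and 23220 bases from sdc-3 (WBGene00004747, chromosome V, 15039148 to 15048207, − strand). At sdc-1, which encodes a zinc-finger protein, the candidate summit lay 405 bases upstream with a signal of 39.6 at rank 2566 in the pooled list. Its ranks were 6400 in replicate 1 and 3264 in replicate 2, with signals of 18.1 and 19.5. At sdc-2, the gene for the protein that starts assembly on X and is made in hermaphrodites, the candidate lay 425 bases upstream with a signal of 38.9 at rank 2734. Replicate 2 listed it at rank 2677 with a signal of 20.6, and replicate 1 much lower, at rank 12687 with a signal of 15.1. At sdc-3, which encodes another zinc-finger protein, the candidate lay 170 bases upstream with a signal of 30.001 at rank 7534, and its ranks were 22669 in replicate 1 and 4060 in replicate 2. All 3 candidates ranked higher in replicate 2 than in replicate 1. Stronger start regions were listed for 6.36% of all protein-coding genes than at sdc-1, 6.69% than at sdc-2 and 14.4% than at sdc-3. For sdc-1 and sdc-2 the start candidate was also the strongest pooled region within 6000 bases. For sdc-3 that was a region in coding sequence 3503 bases inside the gene, with a signal of 31.2 at rank 6437.

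The sequences under these 3 candidate summits are shown because they share the word GAGAGA, the most frequent of the 7 words searched at reproducible summits. Each run is 101 bases centred on the summit, + strand of ce11 (RefSeq WBcel235), at chrX:16275308-16275408 for sdc-1, chrX:11522232-11522332 for sdc-2 and chrV:15048327-15048427 for sdc-3. Capitals mark GAGAGA or its reverse complement, and in sdc-1 also the reverse complement of AGGTCA, the core hexamer that many nuclear receptors bind:
sdc-1: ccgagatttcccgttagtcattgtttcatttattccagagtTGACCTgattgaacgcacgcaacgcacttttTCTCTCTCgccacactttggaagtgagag
sdc-2: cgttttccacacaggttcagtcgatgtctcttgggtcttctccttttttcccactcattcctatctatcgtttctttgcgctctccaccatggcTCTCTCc
sdc-3: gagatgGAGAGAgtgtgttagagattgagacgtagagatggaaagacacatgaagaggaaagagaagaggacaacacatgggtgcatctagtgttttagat

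Of the 6 genes with a candidate at the start, 4 had GAGAGA within 50 bases of its summit: sdc-1, with 2 overlapping copies, sdc-2, sdc-3 and dpy-27. The other 2, xol-1 and fox-1, had the weakest candidates and held none of the 7 words. The word occurred at 295 of the 1030 reproducible summits (28.6%), at 2340 of the 30000 pooled summits (7.80%) and at 8.70% of the 8830 pooled summits in a protein-coding start window. It was also common in the genome, in 4.91% of 101-base windows of X and 5.24% of those of the autosomes. AGGTCA was found at 27 reproducible summits (2.62%). Its share of pooled summits and of genome windows was not counted, so it is not known to be more frequent at summits. Binding of NHR-11 to that word was not tested. The share with GAGAGA was thus higher among the strongest regions than among all candidates, and no share was computed for regions of the ranks seen at sdc-1 and sdc-2.

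Of the 3 condensin subunit genes, dpy-28 and mix-1 had a reproducible region within 6000 bases, but neither region lay at the start of its gene. The strongest region near any of the 10 genes was 3879 bases upstream of dpy-28 (WBGene00001087, chromosome III, 10763131 to 10777076, + strand), which encodes a non-SMC subunit shared with mitotic condensin. The region, chrIII:10759074-10759429, had a signal of 433 in the pooled list, 217 in replicate 1 and 220.2 in replicate 2. It ranked 3 in the pooled list, 4 in replicate 1 and 3 in replicate 2, with replicate summits 4 and 13 bases from the pooled one. A whole gene lies between the summit and dpy-28. It is tasp-1 (III, 10759307 to 10763021, + strand), a gene named for a threonine aspartase, whose 5′ end is 55 bases downstream of the summit. The summit also lay in the start window of K01G5.10, 730 bases upstream of that gene on the − strand. By position the region lay nearer to the starts of both neighbours than to that of dpy-28. On the same strand, tasp-1 ends at -110 bases relative to the 5′ end of dpy-28. Whether tasp-1 and dpy-28 are transcribed from a shared start was not tested. The start window of dpy-28 itself held no pooled candidate, and only replicate 2 listed a region there, at rank 26634.

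mix-1 (WBGene00003367, chromosome II, 10824246 to 10841424, + strand) encodes an SMC-family ATPase that serves in the dosage compensation complex and in mitotic condensins. Its reproducible region, chrII:10840093-10840448, lay 16025 bases downstream of the 5′ end, in an intron near the end of the gene. The signal was 72.1 at rank 548 in the pooled list. Replicate 1 listed it at rank 339 with a signal of 45.2, and replicate 2 at rank 1556 with a signal of 24.4, outside the strongest 1030. With the 1030 strongest regions of replicate 2 alone, mix-1 is lost and 2 of the 10 genes, xol-1 and dpy-28, have a region within 6000 bases. The summit lay 46 bases before a snoRNA gene, M106.6 (WBGene00014447, II, 10840317 to 10840391, + strand), which sits in the same intron. Among all reproducible summits, 17 (1.65%) lay within 250 bases of a snoRNA gene and 27 (2.62%) within 250 bases of a tRNA gene. The start window of mix-1 held no candidate in any of the 3 lists.

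The sequences at the dpy-28 and mix-1 summits are shown for what lies at each summit in place of the gene's own start. Each is 101 bases of the + strand of ce11 (RefSeq WBcel235), at chrIII:10759202-10759302 upstream of tasp-1 and dpy-28, and at chrII:10840221-10840321 in mix-1. Capitals mark GCGCGC and GAGAGA in the first, and GGTTCGA in the second:
dpy-28: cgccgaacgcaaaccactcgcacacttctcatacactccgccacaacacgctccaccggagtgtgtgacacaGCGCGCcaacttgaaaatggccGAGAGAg
mix-1: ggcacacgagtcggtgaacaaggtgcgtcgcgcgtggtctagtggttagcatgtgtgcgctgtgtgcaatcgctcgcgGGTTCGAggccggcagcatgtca

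Both sequences are rich in G and C, at 58.4% for dpy-28 and 62.4% for mix-1. By comparison, the stronger xol-1 summit was at 38.6% and the weaker at 29.7%, and all 1030 reproducible summits averaged 45.0% ± 8.36 (SD over regions). GCGCGC was found at 53 reproducible summits (5.15%). The mix-1 summit held none of the 7 words. GGTTCGA was looked up only after that sequence was seen. It is a stretch of the B box, the internal promoter element of tRNA genes, and the longer form, in which CC follows after 2 further bases, was present there too. GGTTCGA itself occurred at 11 of 1030 reproducible summits (1.07%), at 225 of 30000 pooled summits (0.75%), and in 0.649% of 101-base windows of X and 0.741% of those of the autosomes. The longer form, also looked up after the sequence was seen, occurred on either strand at 8 of 1030 reproducible summits (0.777%), 72 of 30000 pooled summits (0.240%) and 0.156% of 101-base windows of the genome.

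dpy-27 (WBGene00001086, chromosome III, 3813018 to 3819679, − strand) encodes the SMC-family ATPase that is specific to dosage compensation. It had no reproducible region nearer than 11479 bases, but came closest to one by rank. Its strongest pooled region lay 6733 bases downstream of the 5′ end, just past the end of the gene, with a signal of 43.8 at rank 1821. The overlapping regions ranked 4166 in replicate 1 and 1286 in replicate 2, with signals of 20.1 and 25.9. At the start of dpy-27 the strongest candidate lay 778 bases upstream with a signal of 28.8 at rank 8734. It ranked 4312 in replicate 2 and near the bottom of the replicate 1 list, at 29136. Stronger start regions were listed for 16.3% of all protein-coding genes.

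The sex determination genes downstream of the SDC proteins had neither a reproducible region nearby nor a pooled candidate at the start. Most protein-coding genes also lack each: 13.6% had a reproducible region within 6000 bases and 43.2% had a pooled candidate at the start. her-1 (WBGene00001842, chromosome V, 9697015 to 9702035, + strand) encodes a secreted protein that promotes male fate, and its nearest reproducible summit was 29160 bases away. The strongest of the 9 pooled candidates near her-1 lay 5621 bases downstream of the 5′ end, beyond the gene, with a signal of 32.8 at rank 5261. It ranked 22762 in replicate 1 and 7429 in replicate 2. tra-1 (WBGene00006604, chromosome III, 11170890 to 11195201, − strand) encodes a zinc-finger transcription factor of the Gli family that directs female somatic fate, and its nearest reproducible summit was 48352 bases away. The strongest of the 8 pooled candidates near tra-1 lay in an intron 10528 bases downstream of the 5′ end, with a signal of 32.9 at rank 5199 in the pooled list, 10802 in replicate 1 and 14619 in replicate 2. A stronger region was listed within 6000 bases of 47.6% of all protein-coding genes than near her-1, and of 47.2% than near tra-1. Both genes are longer than the median gene and so have wider windows, and genes of like length were not compared.

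**Figure D3:**
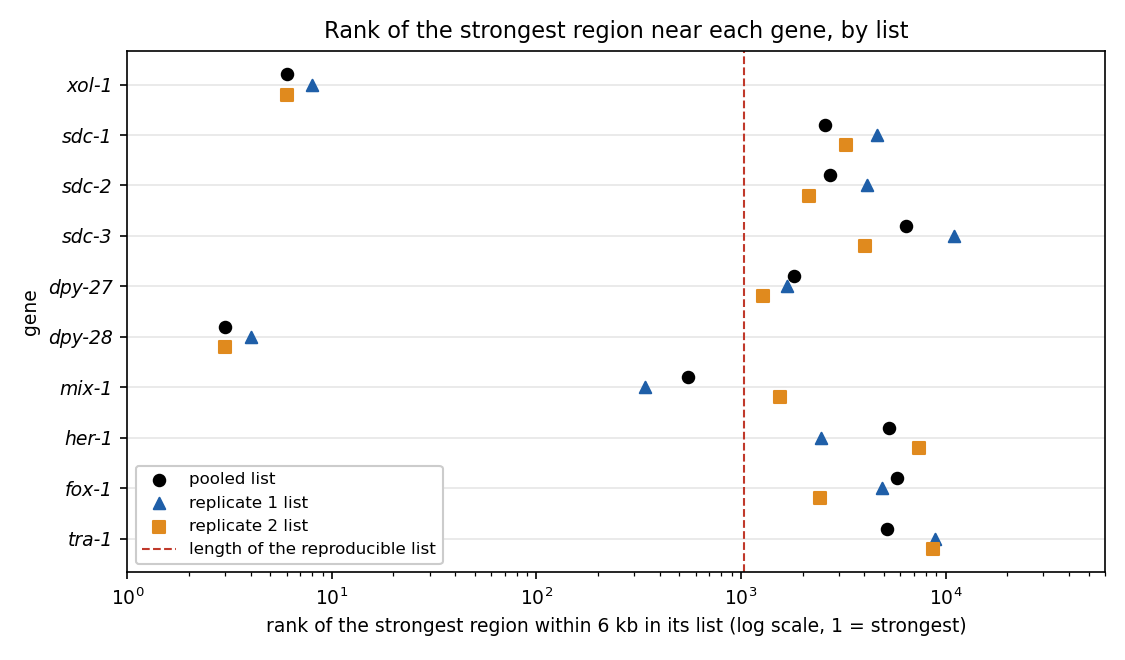
Rank of the strongest region within 6 kb of each of the 10 genes (x axis, log scale, 1 is the strongest) in the pooled list (circles), replicate 1 (triangles) and replicate 2 (squares); the dashed line is rank 1030, the length of the reproducible list. xol-1 and dpy-28 rank between 3 and 8 in all 3 lists, mix-1 falls on both sides of the line, and the other 7 genes lie beyond it in every list.

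Across the 10 genes, the strongest region within 6000 bases had a median rank of 2650 in the pooled list, against 5406 over all protein-coding genes with a region there. The 10 genes are long and so have wider windows, and these ranks were not compared with those of genes of like length. The windows of the 10 genes held 71 pooled regions, or 307 per Mb, against 299 per Mb of the genome. Of those 71, 37 (52.1%) overlapped a region of both replicate lists, against 14023 of all 30000 pooled regions (46.7%). Of the summits, 40.8% lay in introns (29), 29.6% between genes (21) and 21.1% in coding sequence (15), against 31.5%, 37.6% and 20.1% of all 30000 pooled summits, and the windows are centred on long gene bodies. At the start, 6 of the 10 genes had a pooled candidate, beside 43.2% of all protein-coding genes, and the median rank of the strongest one was 8134 against 12482 for all genes with one. None of the 6 ranked within the 1030 of the reproducible list.

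**Figure D4:**
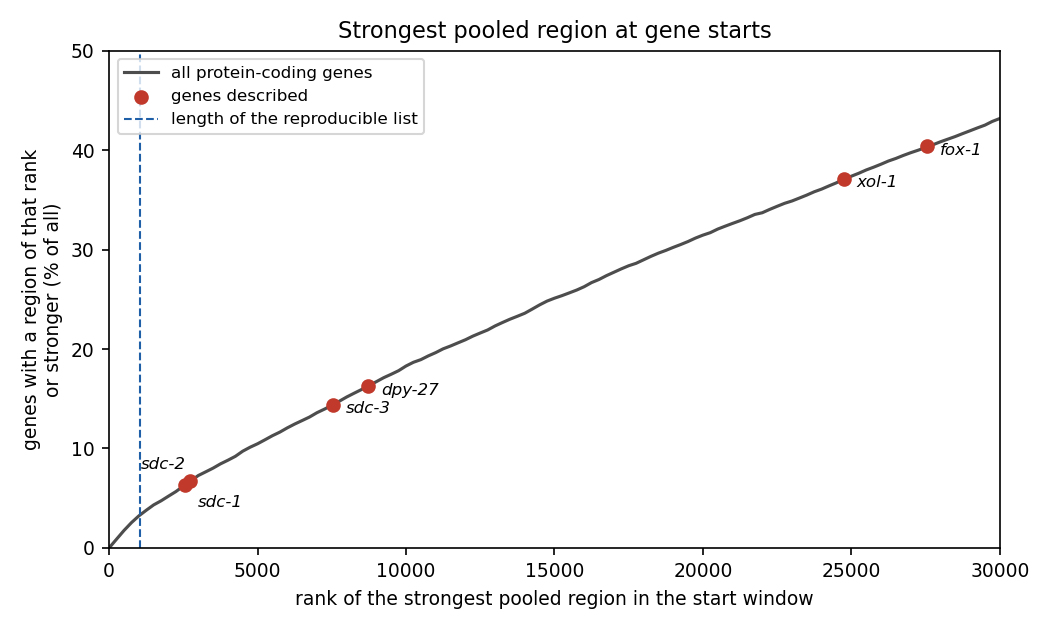
Share of all protein-coding genes (y axis, %) whose start window holds a pooled region of a given rank or stronger (x axis, rank), as a line, with the 6 described genes that have a candidate there as points; the dashed line is rank 1030. sdc-1 and sdc-2 sit at ranks 2566 and 2734, where fewer than 7% of genes have a stronger one, and xol-1 and fox-1 sit near the end of the list.

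Of 32 other genes of the pathway, 9 (28.1%) had a reproducible summit within 6000 bases and 1 (3.13%) had one at its own start, beside the 13.6% and 3.3% of all protein-coding genes. The 32 genes had a median length of 4011.5 bases against 2027 bases for all genes, so their windows are wider. Genes of like length were not compared. The 9 genes had 11 reproducible regions within 6000 bases. Of these, 8 lay in the start window of a neighbouring gene, 2 in no start window and 1 in the gene's own. The 1 gene with a region at its own start was set-4, which encodes a histone H4 methyltransferase. That region lay 263 bases upstream of set-4 with a signal of 110.2 at rank 208 in the pooled list, 433 in replicate 1 and 170 in replicate 2. A second region near set-4 had a signal of 59.8 at rank 846 and lay at the start of C32D5.14. Near set-1, which encodes another histone H4 methyltransferase, the regions had signals of 69.6 at rank 611 and 64.6 at rank 722, at the starts of let-721 and jhdm-1.

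Among the other chromosome-counting genes, sex-1, an X signal element that encodes a nuclear receptor, had a region with a signal of 77.4 at rank 456 at the start of nucb-1. sea-2, an autosomal signal element, had one inside its own intron, 8530 bases downstream of the 5′ end, with a signal of 89.7 at rank 325. dpy-21, which encodes a histone demethylase subunit of the dosage compensation complex, had a region 2194 bases upstream with a signal of 107 at rank 226, at the start of Y59A8B.24. The highest signal near these 32 genes was 145, at rank 102, near tra-2, which encodes the receptor of the HER-1 protein. That summit lay in the start windows of ceh-38 and malt-1, beyond the end of tra-2. The region near tra-4 (91.8, rank 308) lay at the start of kin-29. The one near fog-2 (61.1, rank 811) lay in the start windows of srh-217 and Y113G7B.28. The one near mab-3 (62.3, rank 780) lay 332 bases past the end of that gene in no start window.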

How the data were processed

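Per the file headers and accompanying descriptions, the authors called regions from sample alignments and a control alignment, for each replicate and for both pooled, and deposited a peak signal for each region. A reproducible list was kept after an irreproducible discovery rate (IDR) filter. The sources used here name no caller, aligner or version and do not state the scale of the signal, and the control library was not analysed here. Signals were ranked inside each list and are printed and drawn as listed, and their sizes are not comparable between lists. Genes came from Ensembl release 115 (WBcel235, the same build as the 4 lists on ce11); the 4 lists on ce10 were not used. Coordinates are 1-based. With 2 replicates of 1 group, no test was run; the labels do not say how the replicates were separated.

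Named were all 10 genes, each reproducible region within 6000 bases with the genes at whose start it lay, each gene's strongest candidates, and other pathway genes with a reproducible region nearby. The 10 genes, the other pathway genes and the sequence words were chosen with earlier results of these data known. Counts were made with Python 3.11.15, pandas 2.3.3 and numpy 2.4.6, and figures with matplotlib 3.10.9; the counting was tested on simulated data.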

Additional observations from a re-analysis of the deposited data

How the results depend on the processing

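The number of the 10 genes with a reproducible summit within 6000 bases, 3, was 1 (mix-1) within 3000 bases, against 8.86% of all protein-coding genes, and 1 within 1000 bases, against 5.27%. It was 1 (xol-1), against 4.37%, where each summit counted only for the gene with the nearest 5′ end. Without 1 replicate it ranged from 2 to 3, against 13.3% to 13.4% of all genes; without replicate 1, mix-1 was lost. Taking 2 times as many pooled regions gave 4, with dpy-27 added, against 23.7%. The number of summits near the 10 genes, 4, was 2 with the stronger of 2 equal parts of the list, 1 within 3000 or 1000 bases, 2 with the nearest 5′ end only, and from 2 to 4 without 1 replicate. For the other pathway genes, the 9 with a summit within 6000 bases were 4 within 1000 bases and 2 with the nearest 5′ end only, beside the same shares of all genes. The 1 with a summit at its own start became 2 with 2 times as many pooled regions (hcp-6 joined set-4), against 5.31% of all genes, and 2 with a start window of 2000 bases to each side (set-1 joined set-4), against 5.22%. The count of 0 of the 10 genes at the own start was 0 under all 9 alternatives tried, under which 1.81% to 5.31% of all genes had one. No paired analysis was possible because there is 1 group and no test. Depth is unknown, so the lists cannot show whether an unlisted region is absent or only undetected.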
